A study of Mus musculus with 15 samples.

Results

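The proteins of the cytoplasmic ribosome are encoded by a family of genes named Rps for the small subunit and Rpl for the large subunit. The members were all protein-coding mouse genes whose symbol is Rps or Rpl with a number, plus the stalk genes Rplp0, Rplp1 and Rplp2 and the small-subunit gene Rpsa. Kinases of the Rps6k family and pseudogenes were left out. The rule uses gene names only and found 87 of the 36528 genes listed: 31 of the small subunit, 43 of the large subunit, 3 of the stalk and 10 paralogues, which are copies or close relatives of another member.

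RNA came from tumour nests of mouse basal cell carcinoma, cut by laser from fresh frozen skin, and polyadenylated RNA was sequenced. All mice carried K14Cre-ER, a Cre recombinase under the keratin 14 promoter of basal epithelium, with floxed Ptch1 and p53 alleles and Lgr5GFP. Of the 15 libraries, 5 came from nests after 28 days of vismodegib, an inhibitor of the Hedgehog transducer Smoothened. Another 5 came from untreated nests labelled Ki67-positive and 5 from untreated nests labelled Ki67-negative, Ki67 being a protein of dividing cells. The labels give no dose, age, animal or replicate number, so the libraries of each group carry the numbers 1 to 5 by order of accession only. Nests of a group may share an animal, and the p-values measure only the spread between these samples, which may be technical. The Ki67-negative libraries have a later range of accessions than the others, and a run of their own, if there was one, cannot be told apart from the group. The sample numbers in the titles form 1 unbroken series over the groups, except for 1 Ki67-positive library. Neither numbering says which libraries were run together. A nest also holds other cells, so fewer cells of a type and less RNA per cell cannot be told apart.

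A ribosome contains 1 copy of nearly every one of these proteins, and cells adjust their synthesis together. Transcripts of the class typically begin with a C followed by an unbroken run of pyrimidines (C or T), the terminal oligopyrimidine or TOP tract. The tract lets the growth-sensing kinase complex mTORC1 and the RNA-binding protein Larp1 control translation of these mRNAs. The genes are short and highly expressed, and mammalian genomes hold many processed pseudogenes copied from their mRNAs, so a sequencing read from such a gene may match several places.

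Of the 87 members, 67 matched a promoter entry of RefSeq (GRCm38.p6). In 33 of them (49.3%) a run of at least 7 pyrimidines beginning with C lay within 15 bases on either side of an annotated start, on the strand of the gene. The same held for 17.1% of the 17000 protein-coding genes with an entry. A C followed by at least 4 pyrimidines exactly at an annotated start was found in 15 members (22.4%) and in 2.68% of all genes. The following 5 windows of 30 bases, each from 15 bases before an annotated start, show runs that reach over the start in members that rose in the vismodegib libraries against both untreated groups. The run is in capitals.
Rpl14 (chr9:120571502-120571531, plus strand): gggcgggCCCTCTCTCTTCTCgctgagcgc
Rplp2 (chr7:141447636-141447665, plus strand): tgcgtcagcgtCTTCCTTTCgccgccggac
Rps10 (chr17:27635230-27635259, minus strand): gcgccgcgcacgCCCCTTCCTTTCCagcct
Rpl38 (chr11:114668565-114668594, plus strand): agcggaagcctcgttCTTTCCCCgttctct
Rps6 (chr4:86857353-86857382, minus strand): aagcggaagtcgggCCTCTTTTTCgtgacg
Runs at the start were also found in members for which no rise was called against either untreated group, among them Rpl28, Rpl35, Rps18 and Rpl32l. Rpl15 and Rps27, with a rise called only against Ki67-negative nests, had them as well. Whether the run goes with the rise was not tested, and the match describes the sequence around the annotated start only.

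Ribosomal protein mRNAs made up a larger share of the library after vismodegib. The members summed to 8263, 8290, 10667, 12427 and 9646 CPM, which are counts scaled to the TMM-adjusted library size, in the 5 vismodegib libraries. The sums were 5472, 3515, 5048, 4948 and 4764 CPM in the Ki67-positive libraries and 4971, 4941, 3713, 5173 and 3606 CPM in the Ki67-negative libraries. Every vismodegib library lay above every untreated one, with library 4 highest, while Ki67-positive library 2 and Ki67-negative libraries 3 and 5 were lowest. The mean sum was 2.08 times that of Ki67-positive and 2.20 times that of Ki67-negative nests, and the Ki67-negative mean was 0.944 times the Ki67-positive one. Both subunits shared the rise. The ratio of the summed small-subunit to the summed large-subunit CPM was 0.850 ± 0.0497 after vismodegib, 0.837 ± 0.0334 in Ki67-positive and 0.843 ± 0.00971 in Ki67-negative nests (SD, n = 5 each). In all libraries the class was a small part of the counted reads, between 0.337% and 1.19% of a library's total, from 18389 to 107789 counts. The libraries held 4887381 to 10328822 counts in all. The 5 genes with the most counts, Rpl4 among them, took 41.6% of the summed CPM on average.

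**Figure D1:**
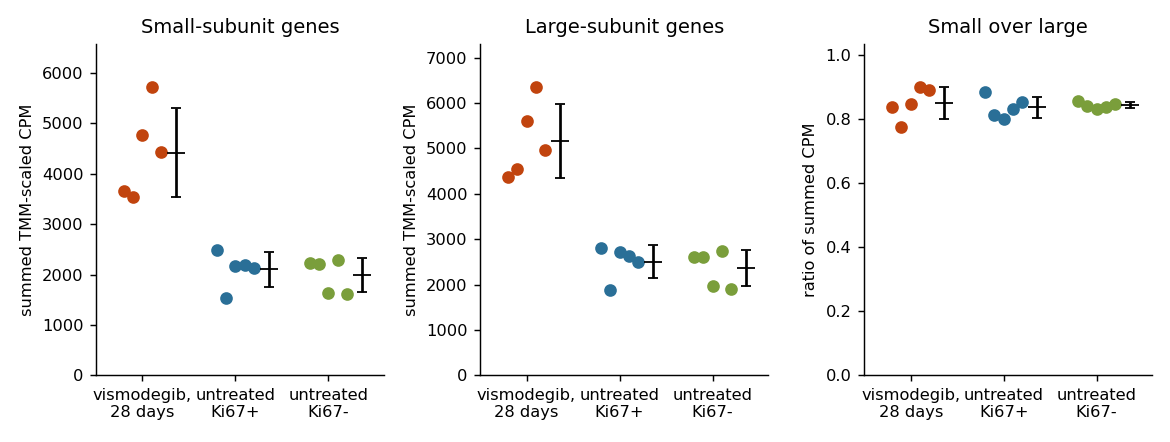
Summed TMM-scaled CPM of the small-subunit genes (left) and large-subunit genes (middle), and the ratio of the sums (right). Points are libraries 1 to 5 of each group from left to right, and the bar beside them is the mean ± SD. Vismodegib libraries lie above all untreated libraries in both sums, while the ratio overlaps between groups.

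Compared with untreated Ki67-positive nests, 51 of the 85 members tested were higher after vismodegib and 0 were lower (edgeR's quasi-likelihood test, Benjamini-Hochberg adjusted p under 0.05). Among all 17282 genes tested 12.6% were called higher and 13.4% lower. The median log2 fold change of the members was 0.86, a fold of 1.82, against −0.02 over all genes, and 78 of 85 values were above 0. The 5 vismodegib libraries lay above all 5 Ki67-positive libraries for 44 members, where 10.2% of all genes were separated in this direction. Against untreated Ki67-negative nests, 54 members were higher and 0 lower, with 15.4% of all genes called higher and 16.5% lower. The median was 0.95, a fold of 1.93, and 43 members were separated, against 10.4% of all genes. These comparisons share the vismodegib libraries. In both, 48 members were called, while 3 (Rpl26, Rps19 and Rpsa) were called only against Ki67-positive nests and 6 (Rpl13, Rpl15, Rpl29, Rpl36al, Rps23 and Rps27) only against Ki67-negative nests. The difference of these 9 between the untreated groups was not called for any of them. Neither comparison called the remaining 28, and the members not tested were the germline paralogue Rpl10l, with 0 counts, and the striated-muscle paralogue Rpl3l, too low for the filter.

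**Figure D2:**
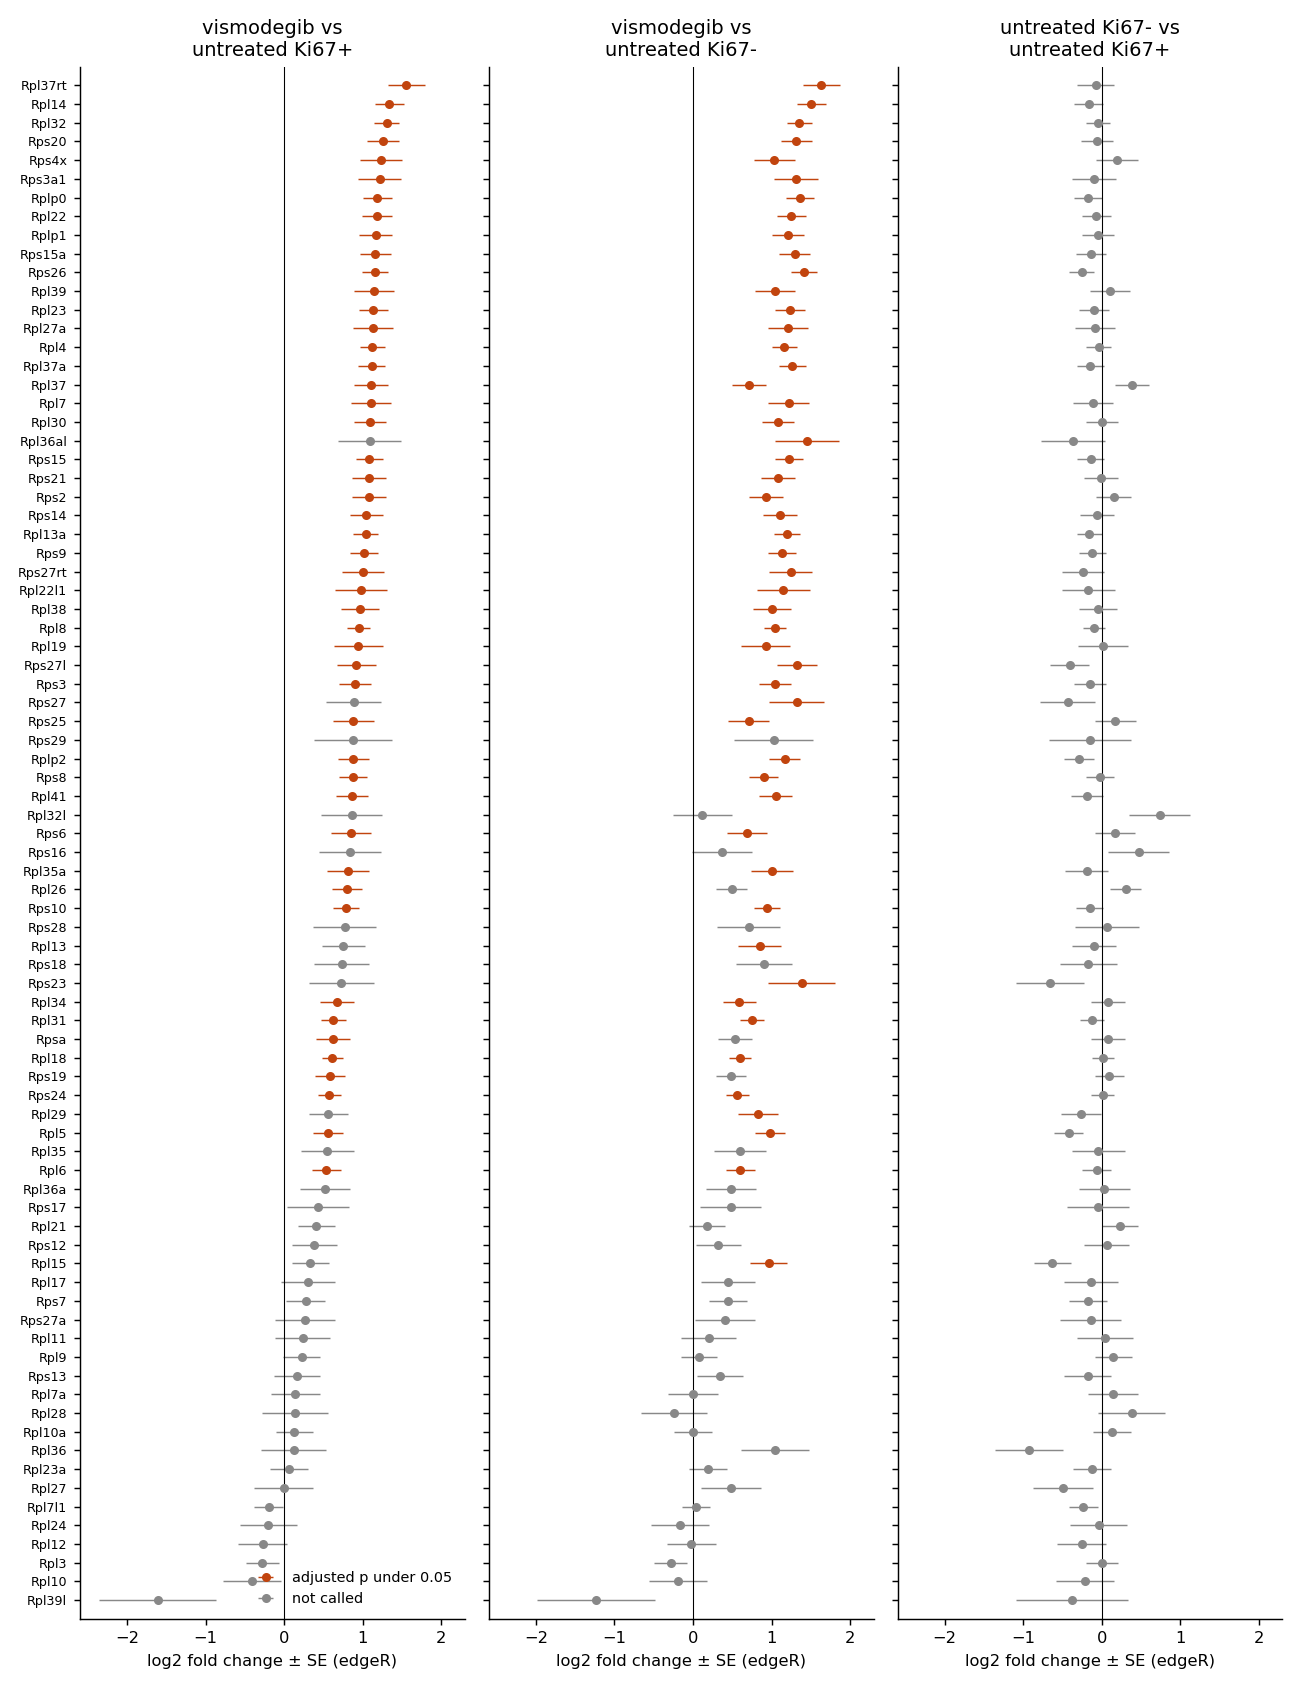
Log2 fold change ± SE of 82 of the 85 members tested, in the order of their value against Ki67-positive nests. Red points have an edgeR adjusted p under 0.05. Most points of the left and middle panels lie above 0, and none of the right panel, which compares the untreated groups, is called.

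No member passed the same test between the untreated groups. Ki67-negative against Ki67-positive nests gave 0 calls in either direction among the 85, with 0% of all genes called higher and 0.174% lower. The 5 members with the smallest adjusted p were Rpl15 (log2 fold change −0.63, adjusted p = 0.639), Rpl5 (−0.42, 0.722), Rpl36 (−0.93, 0.745), Rpl32l (0.74, 0.781) and Rpl37 (0.38, 0.805). An unadjusted p under 0.05 was seen in 3 members. DESeq2 and limma voom also called 0 members. The median log2 fold change was −0.08, and 0 members were separated, against 0.33% of all genes higher and 0.845% lower. The proliferation gene Mki67 itself averaged 776 ± 228 CPM in the Ki67-positive and 361 ± 74.5 CPM in the Ki67-negative nests (SD, n = 5 each), and the edgeR log2 fold change was −1.10 (SE 0.20, adjusted p = 0.0291). After vismodegib it was 683 ± 142 CPM, which was 0.92 above Ki67-negative nests on the log2 scale (SE 0.20, edgeR adjusted p = 0.00189) and −0.18 from Ki67-positive nests (SE 0.20, edgeR adjusted p = 0.538).

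Among small-subunit genes, 20 of 31 rose in each vismodegib comparison, with median log2 fold changes of 0.88 and 0.95. Pairs of log2 fold changes are given in the order against Ki67-positive, then against Ki67-negative nests.

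Rps3, at the mRNA entry channel, reached 583, 507, 802, 867 and 694 CPM with vismodegib, 413, 247, 391, 383 and 418 CPM in the Ki67-positive libraries and 393, 406, 263, 403 and 204 CPM in the Ki67-negative libraries. Its log2 fold changes were 0.90 (SE 0.20, adjusted p = 0.00287) and 1.05 (SE 0.20, adjusted p = 0.000761), without overlap of the groups. Rps20 had 138, 138, 161, 234 and 185 CPM with vismodegib, 97.05, 42.3, 70.5, 72.3 and 76.9 CPM in the Ki67-positive libraries and 80.7, 65.9, 51.1, 79.7 and 66.1 CPM in the Ki67-negative libraries. The log2 fold changes of Rps20 were 1.25 (SE 0.20, adjusted p = 0.000159) and 1.32 (SE 0.20, adjusted p = 9e-05), and its groups were separated. Rps26 rose by 1.16 and 1.41, Rps15a by 1.16 and 1.30 and Rps3a1 by 1.21 and 1.31 (log2, against Ki67-positive and Ki67-negative nests). The X-linked Rps4x rose by 1.24 and 1.04.

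Rps6, the substrate of the S6 kinases, rose less evenly. It reached 20.96, 22.4, 32.7, 49.4 and 25.1 CPM with vismodegib, 18.6, 12.4, 22.4, 13.6 and 16.4 CPM in the Ki67-positive libraries and 18.6, 17.1, 12.9, 20.4 and 24.5 CPM in the Ki67-negative libraries. Vismodegib library 4 was highest, library 1 lay below the highest library of each untreated group, and library 2 lay below the highest Ki67-negative library. The log2 fold changes were 0.85 (SE 0.25, adjusted p = 0.0175) and 0.69 (SE 0.25, adjusted p = 0.0444). The first call was lost under 2 of 26 alternative settings, 1 of them leaving out vismodegib library 4, and the second under 14. Rpsa, also known as the laminin receptor, stood at 24.5, 23.4, 12.1, 19.9 and 19.2 CPM with vismodegib, 13.2, 9.81, 12.4, 16.2 and 12.5 CPM in the Ki67-positive libraries and 13.9, 13.6, 16.8, 11.02 and 12.9 CPM in the Ki67-negative libraries. Vismodegib library 3 lay among the untreated libraries. The log2 fold change of Rpsa was 0.62 (SE 0.22, adjusted p = 0.0414) against Ki67-positive nests, a call lost under 14 of 26 settings, and 0.54 (SE 0.22, adjusted p = 0.0648) against Ki67-negative nests. Rps7 (0.27 and 0.45), Rps13 (0.16 and 0.34) and Rps12 (0.39 and 0.32) were among the 9 small-subunit genes called in neither comparison.

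Among large-subunit genes, 24 of 43 rose against Ki67-positive and 26 of 43 against Ki67-negative nests, with median log2 fold changes of 0.63 and 0.83. Rpl32 had the highest level per length of all members, 709 CPM per kb over the 15 libraries, followed by Rpl4 (582), while Rpl39l (2.09), Rps29 (3.37) and Rpl28 (3.61) were lowest among the members tested. Rpl32 stood at 502, 496, 682, 729 and 575 CPM with vismodegib, 260, 172, 267, 252 and 256 CPM in the Ki67-positive libraries and 250, 259, 196, 282 and 182 CPM in the Ki67-negative libraries. Ki67-positive library 2 was far below the other 4 of its group. The log2 fold changes of Rpl32 were 1.31 (SE 0.16, adjusted p = 1.12e-05) and 1.35 (SE 0.16, adjusted p = 6.4e-06).

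Rpl4, which reaches into the exit tunnel of the growing peptide, drew the most counts of the class. Its values were 1098, 1170, 1502, 1543 and 1194 CPM with vismodegib, 671, 467, 677, 574 and 599 CPM in the Ki67-positive libraries and 692, 629, 510, 676 and 399 CPM in the Ki67-negative libraries. The log2 fold changes were 1.12 (SE 0.16, adjusted p = 4.75e-05) and 1.16 (SE 0.16, adjusted p = 2.94e-05), without overlap of the groups. Rpl8, close to the peptidyl transferase centre, changed by 0.95 (SE 0.14, adjusted p = 8.37e-05) and 1.04 (SE 0.14, adjusted p = 2.86e-05). Rpl14 had 200, 235, 251, 319 and 221 CPM with vismodegib, 95.8, 71.2, 111, 116 and 89.8 CPM in the Ki67-positive libraries and 95.7, 108, 59.98, 102 and 64.6 CPM in the Ki67-negative libraries. With log2 fold changes of 1.34 (SE 0.19, adjusted p = 4.01e-05) and 1.51 (SE 0.19, adjusted p = 1.08e-05), Rpl14 was among the largest rises of the class.

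Rpl5 and Rpl11 bind 5S rRNA and can bind the p53 regulator Mdm2. Rpl5 rose by 0.56 (adjusted p = 0.0347) and 0.98 (adjusted p = 0.000712), while Rpl11 was at 0.24 (adjusted p = 0.67) and 0.20 (adjusted p = 0.701). Whether the pair differ was not tested.

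A number of large-subunit genes did not pass the test and stood near or below 0. Rpl3, which lines the peptidyl transferase centre, was at 11.1, 8.7, 12.2, 12.03 and 11.5 CPM with vismodegib, 16.9, 13.02, 9.39, 12.4 and 15.8 CPM in the Ki67-positive libraries and 13.1, 10.5, 13.9, 15.8 and 14.2 CPM in the Ki67-negative libraries. The groups of Rpl3 overlapped, with log2 fold changes of −0.28 (SE 0.21, adjusted p = 0.361) and −0.28 (SE 0.21, adjusted p = 0.327). Rpl10, which completes the maturation of the large subunit, was at 2.47, 3.79, 3.07, 2.07 and 2.23 CPM with vismodegib, 4.76, 3.54, 2.85, 4.46 and 2.43 CPM in the Ki67-positive libraries and 1.45, 3.26, 3.63, 4.23 and 2.99 CPM in the Ki67-negative libraries. Its log2 fold changes were −0.41 (SE 0.37, adjusted p = 0.452) and −0.19 (SE 0.37, adjusted p = 0.723). Rpl10a (0.13 and −0.001), Rpl24 (−0.20 and −0.16), Rpl12 (−0.27 and −0.02) and Rpl28 (0.14 and −0.24) were not called either. Rpl3, Rpl10, Rpl10a and Rpl24 have under 25% of their 50-base windows to themselves in the annotated transcripts, and Rpl12 and Rpl28 have more. The longest transcripts used for Rpl12 and Rpl28 (1242 and 1106 bases) exceed the lengths over which they were counted (638 and 588 bp).

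All 3 stalk genes rose. The stalk is the flexible arm that recruits elongation factors, with Rplp0 at its base and dimers of Rplp1 and Rplp2 on top. Rplp0 reached 95.7, 116, 134, 158 and 143 CPM with vismodegib, 57.6, 43.2, 66.8, 56.8 and 59.3 CPM in the Ki67-positive libraries and 64.2, 56.1, 36.8, 56.3 and 38.00 CPM in the Ki67-negative libraries. Its log2 fold changes were 1.19 (SE 0.18, adjusted p = 9.64e-05) and 1.36 (SE 0.18, adjusted p = 2.39e-05). Rplp1 reached 213, 232, 241, 286 and 242 CPM with vismodegib, 158, 59.3, 94.7, 124 and 106 CPM in the Ki67-positive libraries and 102, 128, 74.1, 127 and 93.8 CPM in the Ki67-negative libraries. The values of Rplp1 did not overlap, although Ki67-positive library 1 stood closest to the treated ones, and its log2 fold changes were 1.16 (SE 0.21, adjusted p = 0.000389) and 1.21 (SE 0.21, adjusted p = 0.000246). Rplp2 stood at 35.5, 41.9, 51.1, 48.98 and 52.4 CPM with vismodegib, 25.3, 23.96, 27.7, 29.02 and 18.8 CPM in the Ki67-positive libraries and 24.7, 23.8, 12.5, 23.9 and 17.2 CPM in the Ki67-negative libraries. It rose by 0.88 (SE 0.20, adjusted p = 0.00265) and 1.17 (SE 0.20, adjusted p = 0.000224), without overlap. The first call was lost with the length trend of abundant other genes removed (0.34, adjusted p = 0.17).

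**Figure D3:**
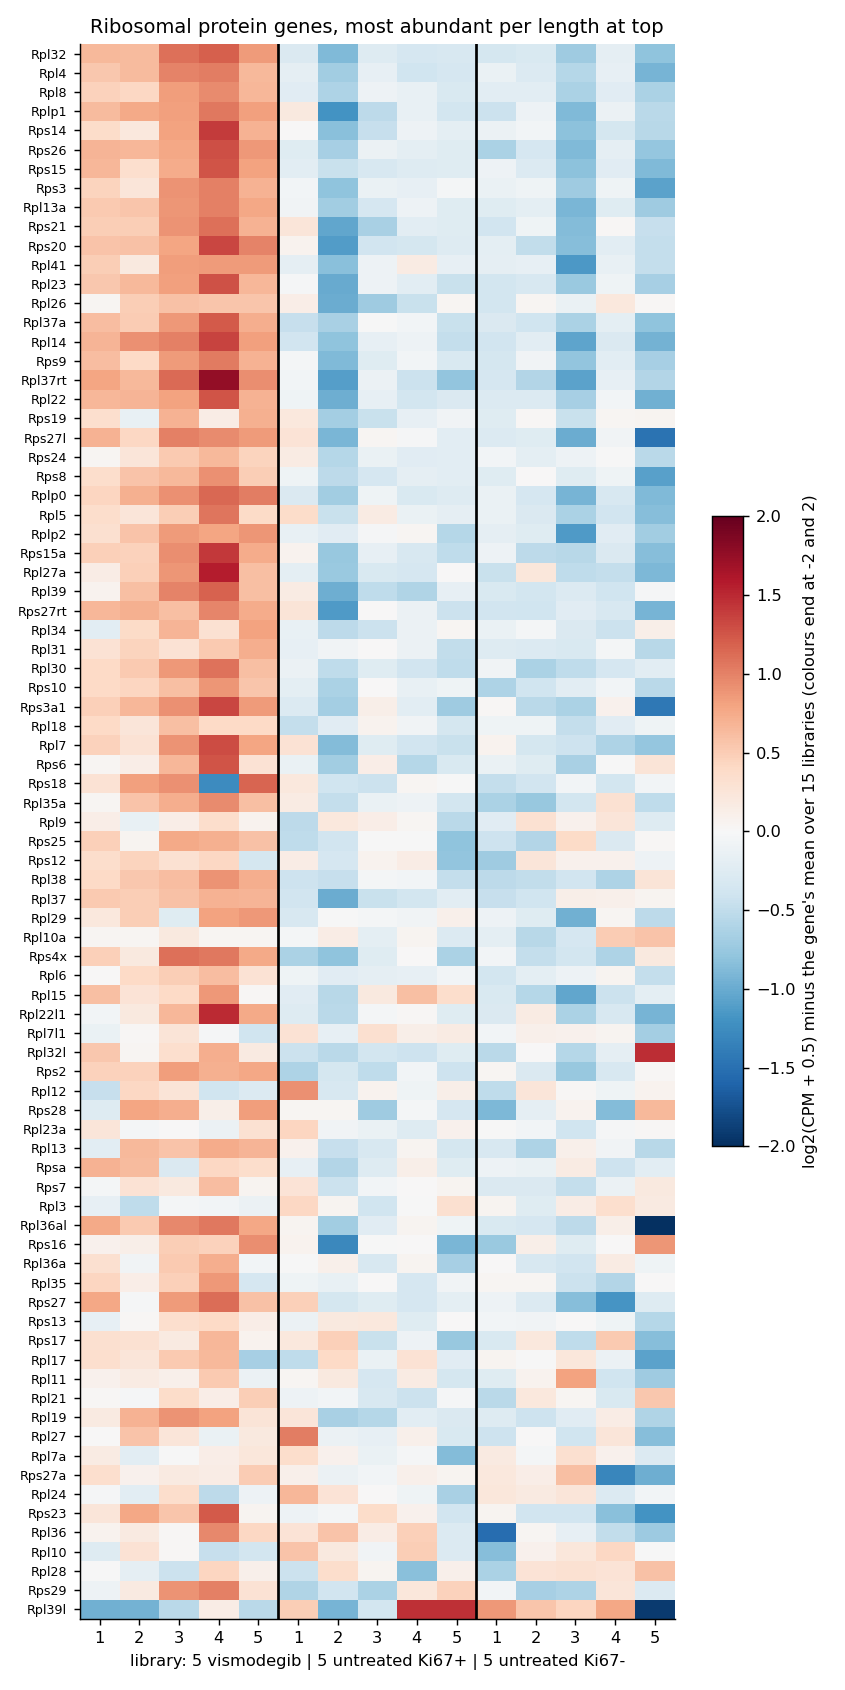
Log2(CPM + 0.5) of each member minus its own mean over the 15 libraries for the same 82 members, with members in order of level per length and libraries 1 to 5 of each group side by side. Colours end at −2 and 2. Most of the upper rows are red in all vismodegib libraries, often darkest in library 4. They are blue in Ki67-positive library 2 and Ki67-negative libraries 3 and 5. The lower rows, of low level, are mixed. Some of them, such as Rpl37 and Rpl36al, are higher in every vismodegib library than in any untreated one.

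Paralogues did not all move with the gene they resemble. Of the 8 tested, 4 rose against Ki67-positive and 5 against Ki67-negative nests. Rpl7l1, a paralogue of Rpl7, stood at 25.7, 28.8, 33.9, 27.8 and 21.2 CPM with vismodegib, 34.5, 25.2, 35.5, 30.7 and 31.8 CPM in the Ki67-positive libraries and 27.1, 30.3, 30.1, 29.3 and 17.4 CPM in the Ki67-negative libraries. It overlapped between all groups, with log2 fold changes of −0.20 (SE 0.18, adjusted p = 0.457) and 0.04 (SE 0.18, adjusted p = 0.897). Rpl7 was at 19.7, 17.4, 26.7, 35.7 and 24.8 CPM with vismodegib, 17.4, 7.56, 11.9, 10.7 and 10.3 CPM in the Ki67-positive libraries and 14.8, 11.1, 10.5, 9.06 and 8.08 CPM in the Ki67-negative libraries, and rose by 1.10 and 1.22. The log2 ratio of Rpl7l1 to Rpl7 was 0.17 ± 0.45 after vismodegib, 1.48 ± 0.29 in Ki67-positive and 1.32 ± 0.33 in Ki67-negative nests (SD, n = 5 each). In an exact permutation test over libraries both vismodegib differences had p = 0.00794, the smallest that 5 against 5 allows, and 0.0476 after Benjamini-Hochberg adjustment over 24 tests of 8 pairs. Rpl7l1 and Rpl7 differ in length (2606 and 934 bp) and in the share of 50-base windows found in no other gene (92.4% and 46.7%). No ratio of a pair was corrected for length or uniqueness, and their part in the shift was not tested.

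Rpl39l, known as the testis-enriched paralogue of Rpl39, was near the detection limit at 0.462, 0.474, 0.792, 1.58 and 0.786 CPM with vismodegib, 2.15, 0.482, 0.95, 4.68 and 4.65 CPM in the Ki67-positive libraries and 2.9, 2.27, 2.02, 2.72 and 0 CPM in the Ki67-negative libraries. Its log2 fold changes were −1.61 (SE 0.74, adjusted p = 0.121) and −1.24 (SE 0.75, adjusted p = 0.22). It was called lower against Ki67-positive nests when Ki67-negative library 5, at 0 counts, was left out, and when the length trend of abundant other genes was removed. Rpl39 rose by 1.14 and 1.04, and both calls were lost with that trend removed (0.49, adjusted p = 0.137, and 0.18, adjusted p = 0.581). The log2 ratio of Rpl39l to Rpl39 averaged −4.58 ± 0.38 in treated and −2.17 ± 1.18 in Ki67-positive nests, a difference of −2.41 (SD, n = 5 each, exact permutation p = 0.00794, adjusted 0.0476). Against Ki67-negative nests the difference was −1.61 (exact permutation p = 0.222, adjusted 0.444).

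Rpl36al stood at 6.63, 5.53, 7.72, 8.27 and 6.68 CPM with vismodegib, 3.84, 2.09, 3.09, 3.88 and 3.44 CPM in the Ki67-positive libraries and 2.9, 2.83, 2.42, 4.08 and 0.449 CPM in the Ki67-negative libraries. Every treated library was above every untreated one. Its log2 fold changes were 1.09 (SE 0.40, adjusted p = 0.0535) and 1.45 (SE 0.41, adjusted p = 0.0115), and the first was called under 7 of 26 settings. The second was lost with the length trend of abundant other genes removed (0.76, adjusted p = 0.138). Rpl36a was at 0.52 and 0.48 and was not called. The log2 ratio of Rpl36al to Rpl36a was higher after vismodegib than in Ki67-negative nests by 1.24 (exact permutation p = 0.00794, adjusted 0.0476) and than in Ki67-positive nests by 0.59 (exact permutation p = 0.0397, adjusted 0.119). Rpl22, at 328, 332, 362, 492 and 336 CPM with vismodegib, 195, 104, 184, 160 and 170 CPM in the Ki67-positive libraries and 171, 171, 131, 199 and 106 CPM in the Ki67-negative libraries, rose by 1.18 and 1.25. Its paralogue Rpl22l1 rose by 0.98 and 1.15, the first call being lost under 11 of 26 settings and the second under 2, and the ratio of this pair did not pass the test in any comparison (exact permutation, smallest adjusted p = 0.415). Rpl32l, which lies within Map7, was at 0.86 and 0.12, and Ki67-negative library 5 had 15.9 CPM of it against 3.43 to 5.38 CPM in the others of its group. Without that library the second value was 0.75 (edgeR adjusted p = 0.0473), and the first was called under 2 of 26 settings.

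Rpl37rt, at 101, 91.6, 128, 198 and 112 CPM with vismodegib, 56.5, 26.9, 53.7, 43.4 and 33.6 CPM in the Ki67-positive libraries and 45.98, 38.8, 27.5, 51.9 and 38.6 CPM in the Ki67-negative libraries, had the largest log2 fold changes of the class, 1.56 (SE 0.24, adjusted p = 0.000104) and 1.64 (SE 0.24, adjusted p = 5.82e-05). Per length it was counted at 92.8 CPM per kb over the 15 libraries and Rpl37 at 12.7. Rpl37 had 15.1, 14.9, 15.7, 17.1 and 16.9 CPM with vismodegib, 7.83, 4.98, 7.49, 7.88 and 8.9 CPM in the Ki67-positive libraries and 7.42, 7.79, 11.3, 11.2 and 10.8 CPM in the Ki67-negative libraries. Rpl37 rose by 1.10 and 0.72, and the second call was lost with either length trend removed (0.45 and 0.17). The log2 ratio of the pair averaged 2.92 ± 0.37 in treated and 2.05 ± 0.52 in Ki67-negative nests (SD, n = 5 each, exact permutation p = 0.0159, adjusted 0.0636). How reads that fit more than 1 paralogue were treated, beyond the use of unique alignments, was not given in the sources used here.

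The counts are reads that aligned uniquely to a gene, so they depend on how much of a transcript differs from every other. The Rps27 family shows the range. The coding sequences of Rps27 (chr3:90212667-90213648, GRCm38) and Rps27rt (chr9:114982366-114982739) are identical over all 252 bases, whereas the paralogue Rps27l (chr9:66944624-66949522), known as a gene inducible by p53, differs at 28 of the first 120. These first 120 coding bases are given from GENCODE M21 transcripts, with differences from Rps27 in capitals.
Rps27: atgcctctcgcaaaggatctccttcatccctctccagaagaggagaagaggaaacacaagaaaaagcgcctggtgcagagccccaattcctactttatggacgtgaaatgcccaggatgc
Rps27rt: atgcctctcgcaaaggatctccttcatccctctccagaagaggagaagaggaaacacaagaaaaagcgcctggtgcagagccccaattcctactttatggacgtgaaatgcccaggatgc
Rps27l: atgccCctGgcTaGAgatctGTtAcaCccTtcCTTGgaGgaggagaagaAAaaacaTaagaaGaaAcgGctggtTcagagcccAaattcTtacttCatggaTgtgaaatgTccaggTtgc
Of the 50-base windows in each gene's annotated transcripts, 1.4% occurred in no other gene for Rps27, 8.9% for Rps27rt and 82.5% for Rps27l.

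Rps27 had only 7.25, 3.95, 7.72, 9.36 and 6.29 CPM with vismodegib, 5.83, 3.06, 3.33, 3.08 and 3.44 CPM in the Ki67-positive libraries and 3.71, 3.26, 2.02, 1.51 and 3.29 CPM in the Ki67-negative libraries. Rps27l had 71.4, 58.7, 89.4, 84.8 and 79.6 CPM with vismodegib, 53.1, 23.1, 45.3, 43.5 and 37.8 CPM in the Ki67-positive libraries and 36.3, 37.1, 22.01, 41.8 and 15.6 CPM in the Ki67-negative libraries. Per length, the paralogue with mostly unique sequence was counted at 82.04 CPM per kb and the gene with an identical copy at 7.78. Neither value says how much of each mRNA the nests held. Rps27l rose by 0.92 (SE 0.25, adjusted p = 0.0104) and 1.33 (SE 0.25, adjusted p = 0.000628), the first call being lost with the length trend of abundant other genes removed (0.40, adjusted p = 0.115). Rps27 was at 0.88 (SE 0.35, adjusted p = 0.0683) and 1.32 (SE 0.35, adjusted p = 0.0083), the first called under 5 of 26 settings, and the second lost with that trend removed (0.59). Rps27rt rose by 1.001 and 1.24, and both calls were lost with the same trend removed (0.35 and 0.40). The ratio of Rps27l to Rps27 did not pass the test between any groups (exact permutation, smallest adjusted p = 0.781).

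Rpl3 is a second example. A stretch of its coding sequence, bases 301 to 390, is identical to the same stretch of the pseudogene Rpl3-ps1, so a read that lies within it has no unique place.
Rpl3: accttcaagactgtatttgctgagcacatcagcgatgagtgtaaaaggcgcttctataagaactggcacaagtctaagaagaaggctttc
Only 14.4% of the 50-base windows of Rpl3 were unique, and 26 annotated pseudogenes shared a window with it. Its level per length was 8.25 CPM per kb, against 582 for Rpl4, in which 83.5% of windows were unique.

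Across the 85 members with an annotated transcript the median share of unique windows was 57.0%, and 38 members had under 50%. Among members tested, 4 of 20 with under 25% unique windows rose against Ki67-positive nests (median log2 fold change 0.41), 14 of 18 with 25% to 50% (0.88), 20 of 28 with 50% to 75% (0.88) and 12 of 17 with at least 75% (1.01). Against Ki67-negative nests the counts were 6, 15, 18 and 14, with medians of 0.48, 0.93, 1.02 and 1.11. The 4 of the lowest class that rose against Ki67-positive nests were Rpl30, Rpl5, Rps27rt and Rps6. In the highest class, the 5 not called were Rpl15, Rpl21, Rpl36al, Rpl39l and Rpl7l1. The share of unique windows and the mean CPM had a Spearman correlation of 0.49 across 83 members, which share libraries and are not independent replicates. A window shared with any other gene model was counted as not unique. Annotated transcripts can be longer than the gene model that was counted, as for Rps20 (3706 bases against 502 bp). For such members the share partly describes sequence outside the counts.

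The level at which a member was counted went with its call. Of the 27 members with an average log2 CPM under 3, 2 rose against Ki67-positive nests (Rpl19 and Rpl22l1), as did 18 of 27 between 3 and 5, 15 of 15 between 5 and 7 and 16 of 16 at 7 or above. The medians were 0.39, 0.81, 0.92 and 1.13. Against Ki67-negative nests 6, 19, 13 and 16 rose, with medians of 0.44, 0.83, 1.09 and 1.22. Rpl10a, Rpl21, Rpl3, Rpl7l1, Rpl9, Rps18 and Rps7 were called in neither comparison although their average log2 CPM was at least 3. Level and share of unique windows rise together across members, and their parts in the calls cannot be told apart.

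**Figure D4:**
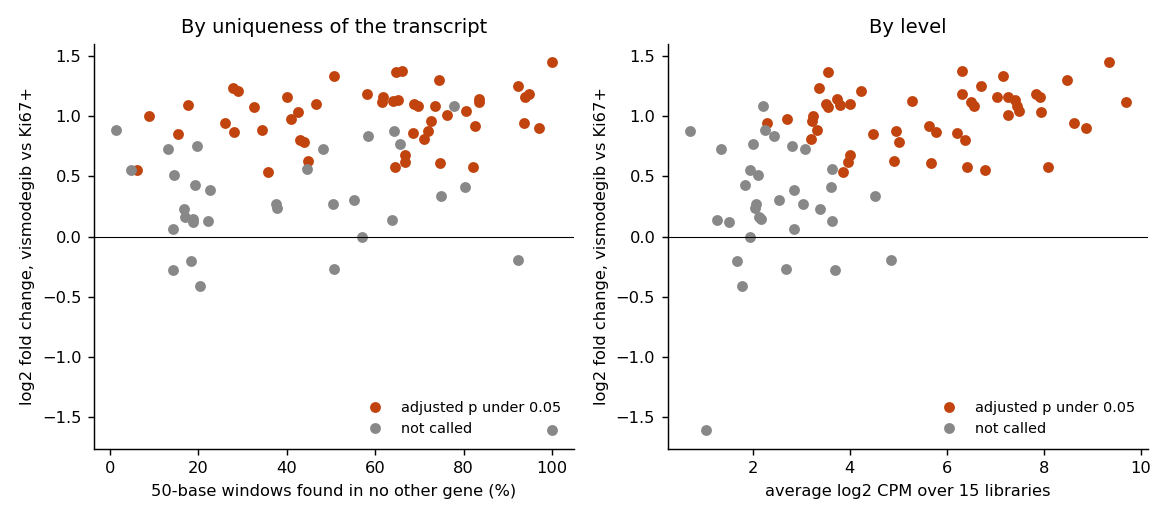
Log2 fold change against Ki67-positive nests for the 83 tested members with an annotated transcript, against the percentage of their 50-base windows found in no other gene (left) and against the average log2 CPM (right). Red points have an edgeR adjusted p under 0.05. Points that were not called are most frequent at the left of both panels, and every member with an average log2 CPM of at least 5 is red.

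Members are short, with a median length of 756 bp as recovered from the ratio of the deposited counts and RPKM, and other short and abundant genes also rose. The other genes are all tested genes outside the class. Ribosomal protein pseudogenes, Rack1 and translation factors with TOP transcripts were not removed from them, and their part in these medians was not tested. Under 500 bp, with an average log2 CPM of at least 6, the 4 members and the 16 other genes both had a median log2 fold change of 1.12 against Ki67-positive nests, and 1.15 and 1.20 against Ki67-negative nests. Among genes outside the class of 500 to 1000 bp at this level, 65.6% of 61 were higher after vismodegib than in Ki67-positive nests, with a median log2 fold change of 0.76. The 11 members of this length and level had a median of 1.12, and all 11 were called higher. At 1000 to 2000 bp the other genes had a median of 0.44 (41.9% of 210 higher) and the 7 members 1.12 (100% higher). At 4000 bp and over the other genes were at −0.05, with 12.8% of 2591 higher, and the 1 member of that length, Rps15a, at 1.16. Against Ki67-negative nests the other genes had medians of 0.99 and 0.49 in the 500 to 1000 bp and 1000 to 2000 bp classes, and the members 1.26 and 1.20. The median deviation from their own mean of the 324 other genes of at most 1000 bp with an average log2 CPM of at least 4 was 0.15 to 0.59 (log2) after vismodegib, −0.48 to 0.08 in Ki67-positive and −0.59 to 0.01 in Ki67-negative nests, and that of the members of every level 0.35 to 0.87, −0.53 to −0.07 and −0.54 to −0.17. Within the class, length and log2 fold change had a Spearman correlation of −0.07 across 83 members, given as a description.

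With a trend on length fitted to all genes and removed, 43 members were higher in each comparison (background 14.7% and 16.3%), with a median of 0.70 in both. With the trend fitted only on genes outside the class with an average log2 CPM of at least 4, 31 members were higher than in Ki67-positive nests (median 0.36, background 13.1%) and 32 higher than in Ki67-negative nests (median 0.37, background 14.3%). This second trend, chosen after seeing the data, also called 1 member lower in each comparison, Rpl39l and Rpl3. Ribosomal protein pseudogenes, Rack1 and translation factors with TOP transcripts were not removed from the genes used to fit it. The size of the rise of the class thus depended on how length was treated.

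**Figure D5:**
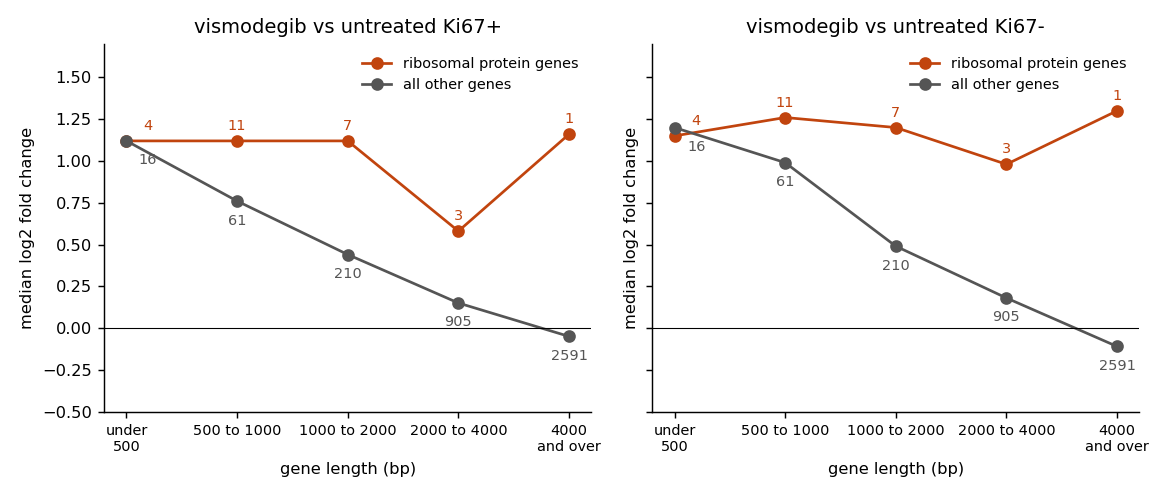
Median log2 fold change by gene length, for members (red) and all other genes (grey) with an average log2 CPM of at least 6, in both vismodegib comparisons. Numbers beside the points count genes. Other genes decline with length from 1.12 and 1.20 under 500 bp to −0.05 and −0.11 at 4000 bp and over, while members stay between 0.58 and 1.30.

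Rack1 and Fau encode subunit proteins outside the naming rule. Rack1, a signalling scaffold on the head of the small subunit, rose from 549 ± 115 CPM (Ki67-positive) and 522 ± 103 CPM (Ki67-negative) to 1157 ± 230 CPM after treatment (SD, n = 5 each). Its log2 fold changes were 1.08 (SE 0.18, adjusted p = 0.000201) and 1.15 (SE 0.18, adjusted p = 9.68e-05). Fau, a ubiquitin-like protein fused to a small-subunit protein, was at 0.49 (SE 0.45, adjusted p = 0.465) and 0.50 (SE 0.45, adjusted p = 0.421). Rps27a, the member fused to ubiquitin, was at 0.27 and 0.41 and was not called.

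Among 17 other genes with known TOP transcripts, chiefly translation factors, 10 rose and 0 fell against Ki67-positive nests (median 0.74), and 14 rose and 1 fell against Ki67-negative nests (median 0.84). Of all genes tested, 12.6% rose and 13.4% fell against Ki67-positive nests, and 15.4% rose and 16.5% fell against Ki67-negative nests. Eef1a1, which delivers tRNA to the ribosome, averaged 693 ± 125 CPM in Ki67-positive nests and 1391 ± 216 CPM after treatment (SD, n = 5 each). Its log2 fold change was 1.01 (SE 0.16, adjusted p = 0.000123). Eef2, the translocation factor, rose by 0.88 and 0.86, Eef1b2 by 1.31 and 1.48, and Eif3f by 0.97 and 1.01. The one that fell against Ki67-negative nests was Naca, a chaperone of nascent peptides, by 0.51 on the log2 scale. The 17 include the initiation factors Eif3e, Eif3f, Eif3h and Eif4b. Of 31 other initiation factors, 10 rose and 1 fell in each comparison (medians 0.27 and 0.36). Eif3m rose by 0.996 and 0.92, and the scaffold gene Eif4g3 fell by 0.73 and 0.90 on the log2 scale.

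The machinery that builds ribosomes is read against all genes tested, of which 12.6% rose and 13.4% fell against Ki67-positive nests and 15.4% and 16.5% against Ki67-negative nests. Of 60 genes of rRNA processing and ribosome assembly, 3 rose and 2 fell against Ki67-positive nests (median 0.02), and 6 rose and 4 fell against Ki67-negative nests (median 0.01). Imp3 and Emg1, both of small-subunit processing, rose by 0.94 and 0.70 against Ki67-positive nests, nucleolin (Ncl) rose by 0.42, and Tcof1, which supports rRNA transcription, fell by 0.95. Of 11 RNA polymerase I genes matched from 14, 1 rose and 1 fell, then 2 and 2 (medians −0.07 and 0.06), with Polr1d at 1.14 and 1.19. Of 19 regulators of mTOR signalling and TOP mRNAs, 1 rose and 1 fell, then 3 and 0 (medians 0.07 and 0.11). Cnbp, which binds TOP mRNAs, rose by 0.58 and 0.89, the transcription factor gene Mycn fell by 1.19 against Ki67-positive nests, and Myc was at 0.59 (SE 0.33, adjusted p = 0.207).

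Of 24 listed pseudogenes with a ribosomal protein symbol ending in -ps, with or without a number, 17 had counts and 11 were tested. Of the 11, 3 rose against Ki67-positive and 5 against Ki67-negative nests, where 12.6% and 15.4% of all genes tested rose. Pseudogenes under other names were not included, and 26 annotated pseudogenes shared a window with Rpl3 alone. The summed level of the 24 was 318 to 450 CPM after vismodegib, against 146 to 212 CPM (Ki67-positive) and 124 to 190 CPM (Ki67-negative). Reads of members that aligned to such copies cannot be told apart from transcripts of the copies.

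Markers of other cells moved with the treatment as well. Of 7 basal keratinocyte and tumour markers, 3 rose and 2 fell in each vismodegib comparison. The nests expressed the basal keratins Krt14 and Krt5 in every library, and Krt14 rose from 988 ± 259 to 2608 ± 334 CPM (SD, n = 5 each). The Hedgehog targets Gli1 and Ptch1 fell by 2.17 and 2.43 (log2) against Ki67-positive nests. All 6 dendritic and Langerhans cell markers were higher after vismodegib than in Ki67-positive nests and 5 of 6 higher than in Ki67-negative nests, with a summed level of 711 to 2342 CPM against 99.8 to 480 CPM and 134 to 465 CPM. Langerin (Cd207) was at 0 in the lowest Ki67-negative library. All 5 T cell markers listed (Trdc was not matched) were higher against Ki67-positive and 4 of 5 against Ki67-negative nests (74.1 to 178 CPM in sum, against 19.0 to 57.1 and 16.9 to 93.5 CPM), Cd3d being at 0 in the lowest Ki67-positive library.

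Of 5 melanocyte markers, 4 fell against Ki67-positive and 3 against Ki67-negative nests (54.6 to 322 CPM in sum, against 294 to 1462 and 151 to 1144 CPM). Of 5 pericyte markers 4 fell in each comparison (91.8 to 132 CPM, against 546 to 910 and 639 to 956 CPM). Of 6 fibroblast markers 1 fell in each (390 to 3513 CPM, against 1421 to 5547 and 2306 to 4369 CPM), of 4 endothelial markers 0 changed (15.3 to 38.9 CPM, against 10.1 to 45.0 and 9.04 to 65.7 CPM), and of 2 red blood cell markers tested 0 and 1 fell (14.0 to 20.9 CPM, against 16.4 to 28.3 and 23.7 to 34.0 CPM). The 3 skeletal muscle markers were too low to test and reached 61.7 CPM in sum in 1 vismodegib library, with 2.02 and 1.01 CPM at most in the untreated groups. Libraries with more Xist than Ddx3y counts numbered 3 in the vismodegib group and 1 in each untreated group, and with a covariate for them, added after seeing the data, 52 and 54 members were higher. The part of other cells in the rise of the members was not tested.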

How the data were processed

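The deposited files give, per the file headers, the count of uniquely aligned reads per gene model and an RPKM divided by a size factor. Alignment used GSNAP to GRCm38 per the submitters' processing notes. Not given in the sources used here were the aligner version, annotation release, read length and strand use. RPKM served only to recover gene length (count over RPKM), scaled to GENCODE M21. Of genes with 1 annotated transcript, 53.2% lay within 5% of their GENCODE length. The length classes, the CPM per kb and both length trends rest on these recovered lengths. Counts of all 15 libraries were fitted together with edgeR 4.0.16 (TMM factors, filterByExpr with a minimum count of 10, robust quasi-likelihood test, 3 contrasts, Benjamini-Hochberg over 17282 genes, 12 residual degrees of freedom, common biological coefficient of variation 0.348). CPM are on TMM-adjusted library sizes, and a deposited identifier was named through RefSeq. Paralogue ratios are log2 of (count + 0.5) of the paralogue over that of its original, in the same library, with a 2-sided exact permutation test. Unique windows are 50-base stretches of GENCODE M21 transcripts found in no other gene. Promoters come from RefSeq.

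The members and gene lists were chosen with earlier results of these data known. Members named in full were the 8 largest rises with an average log2 CPM of at least 3, all paralogues with their originals, the stalk genes, Rpsa, Rps6 and the 3 highest and 3 lowest per length among members tested, and from other lists up to 4 genes by adjusted p. Where fewer than 5 members were called, the 5 with the smallest adjusted p were named. Further members and list genes, among them Rps3, Rps15a, Rps3a1, Rpl8, Rpl11, Rpl3, Rpl10, Rps7, Rps13, Rps12, Rps27a, Rpl10a, Rpl24, Rpl12, Naca and Myc, were chosen after their values were seen. Rps26 met the rule only against Ki67-negative nests and Rpl5 only between the untreated groups. Their values in other comparisons were added after being seen. Some genes are not reported here by name and are left out of the figures with gene names. On data simulated for vismodegib against Ki67-positive nests (17013 genes), the test called 28% of genes raised by a log2 of 1, 8% raised by 0.6 and 0.012% of unchanged genes. The simulation changed only 50 genes for each size and direction and gave every gene the same spread. In the real comparison 26% of genes were called, so these shares do not give the power of the test on these data. Alternatives were other scalings and filters, DESeq2 1.42.0, limma 3.58.1 voom, the compared groups alone, length trends, a covariate for Xist-high libraries, and leaving out each library.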

Additional observations from a re-analysis of the deposited data

Results flagged for a closer look

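Among 102 sets of 5 libraries (33 named members in up to 3 groups and the class sums), 9 held a library far from the other 4. Chance alone flags about 1 in 20 such sets. Vismodegib library 4 was highest for Rpl22 (492.5 CPM, the others 327.6 to 362.2), Rpl5 (218.3, the others 122.4 to 147.0) and Rps26 (285.5, the others 185.2 to 214.0), and also had the highest summed level. Ki67-positive library 2, with the lowest sum of its group, was low for Rpl32 (172.2 CPM, the others 252.0 to 267.2) and Rps26 (73.64, the others 98.5 to 108.1). Ki67-positive library 1 was high for Rps27 (5.835 CPM, the others 3.055 to 3.438). Ki67-negative library 5 was high for Rpl32l (15.86 CPM, the others 3.433 to 5.382) and Rpl39 (11.67, the others 8.908 to 9.693) and low for Rpl7l1 (17.35, the others 27.1 to 30.31).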

How the results depend on the processing

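Across 26 alternative fits, 31 members were called higher than in Ki67-positive nests in every fit and 29 in no fit, and 32 and 26 against Ki67-negative nests. With the length trend of abundant other genes removed, 31 members were higher and 1 lower (Rpl39l) against Ki67-positive nests, with a median of 0.36, and 32 higher and 1 lower (Rpl3) against Ki67-negative nests, with a median of 0.37. The trend over all genes left a median of 0.70 against Ki67-negative nests. Leaving out each library in turn gave 43 to 54 higher and 0 to 1 lower against Ki67-positive nests (median 0.78 to 0.93), the 1 being Rpl39l without Ki67-negative library 5. It gave 48 to 56 higher and 0 lower against Ki67-negative nests (median 0.84 to 0.99), and 0 in either direction between untreated groups (median −0.16 to −0.03). The ratios of summed CPM then ran from 1.94 to 2.16, 2.06 to 2.29 and 0.886 to 0.99. No paired analysis was possible because the labels give no replicate numbers. Values of single genes were compared across the settings for 29 and 28 members in the vismodegib comparisons, and not for the other genes named. Of their values, 31 against Ki67-positive and 22 against Ki67-negative nests lost their call, 16 and 3 gained one, and none of these called values changed direction. Depth, uniqueness, length and other cells in the nests cannot be told apart as parts of the calls.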
